A study of Mus musculus with 30 samples.

Results

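The microRNAs (miRNAs) described here carry the names miR-297, miR-466, miR-467 and miR-669, the names given to a large cluster of hairpins in an intron of the mouse gene Sfmbt2. Members were chosen by name alone, as every mouse miRNA on the array whose name begins with 1 of these 4, with any suffix or arm. The array carried 62 of them among 1079 mouse miRNAs: 4 named miR-297, 23 miR-466, 12 miR-467 and 23 miR-669. Of these, 42 were detected often enough to be tested, among 306 tested miRNAs in all.

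Levels were measured in heart sections holding both ventricles from female mice of the C57BL/6 strain, bought at 5 to 6 weeks of age. Each mouse had received a single instillation into the airway of 162 µg of Printex 90, a nanoparticulate carbon black, or of the vehicle alone, a saline solution with cell-free lavage fluid from mice of the same strain, and was killed after 1, 3 or 28 days. The 30 samples held came from 14 vehicle mice (4, 6 and 4 in order of time) and 16 Printex 90 mice (6, 5 and 5). The file of Printex 90 replicate 3 of day 3 lists names without signal. So 29 arrays, with 4 Printex 90 mice on day 3, entered every test of the scanner signal. Per the series text, each array was hybridised with the RNA of an individual mouse.

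A miRNA is a short RNA that guides the silencing machinery to messenger RNAs, and its seed, bases 2 to 8 from the 5′ end, does most of the target recognition. A hairpin precursor gives a 5p and a 3p arm, and the arm thought to be the less abundant was once marked with a star. Sfmbt2 encodes a Polycomb group protein, is imprinted and is transcribed from the paternal copy in extraembryonic tissue, and the hairpins in its intron arose by repeated duplication, so that many arms differ by few bases. Several are rich in alternating C and A or G and U. Among the members, miR-669a is known to act on the muscle regulator MyoD in cardiac progenitors, and miR-467b on lipoprotein lipase in macrophages. miR-466l is known to act on interleukin 10 transcripts, and miR-466h-5p on genes that protect cells from apoptosis. Here miR-467b and miR-669a-5p were detected on 0 arrays and not tested, while miR-467b* and miR-669a-3-3p were detected on 29.

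By the RefSeq gene table for GRCm38.p6, 72 of 82 mouse hairpin genes with these names lie within Sfmbt2 on chromosome 2 and 10 lie elsewhere. The name is therefore not the same as the locus. All hairpins of 49 members lie inside Sfmbt2. For 8 members they lie outside it: miR-466i-3p and miR-466i-5p in Cdk13 on chromosome 13, miR-466q in Tnik, miR-669n in Slc30a7 and miR-466k in Gm31419, all on chromosome 3, miR-467f in Fxr2 on chromosome 11, miR-467g in Grk4 on chromosome 5, and miR-466j on chromosome 10 outside a host gene. For miR-297a*, miR-466f-3p and miR-466f-5p hairpins lie both inside and outside, and miR-297a-5* and miR-466a-5p had no match by name. Of the tested members, 32 were inside, 7 outside, 2 in both places and 1 without a match.

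The RefSeq table of mature sequences held 7 members, all from outside Sfmbt2. They are shown because they let the repeat in these names be read beside 3 tested miRNAs that have other names but a like repeat. The seed is in capitals.
miR-466i-3p: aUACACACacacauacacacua
miR-466q: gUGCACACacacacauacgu
miR-467f: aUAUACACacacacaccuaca
miR-467g: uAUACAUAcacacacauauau
miR-466j: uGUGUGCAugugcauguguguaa
miR-466k: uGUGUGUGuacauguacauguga
miR-669n: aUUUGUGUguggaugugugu
miR-1187: uAUGUGUGuguguauguguguaa
miR-3082-5p: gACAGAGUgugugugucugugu
miR-574-5p: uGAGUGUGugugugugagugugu
The 7 members have 7 different seeds. In GRCm38.p6 miR-466i-3p lies at chr13:17747552-17747573 (+), miR-466q at chr3:28419988-28420007 (+), miR-467f at chr11:69635419-69635439 (-), miR-467g at chr5:34732872-34732892 (-), miR-466j at chr10:60960802-60960824 (+), miR-466k at chr3:85467396-85467418 (+) and miR-669n at chr3:115979905-115979924 (+). Of the others, miR-1187 lies at chr5:82798964-82798986 (-), miR-3082-5p at chr17:25831406-25831427 (-) and miR-574-5p at chr5:64970328-64970350 (+). Bases C and A make up 86.4% of miR-466i-3p, 85.7% of miR-467f, 71.4% of miR-467g and 70.0% of miR-466q, while G and U make up 73.9% of miR-466j and 90.0% of miR-669n. A run of 8 alternating bases (UGUGUGUG, GUGUGUGU, ACACACAC or CACACACA) occurs in 6 of the 7, all but miR-466j. It occurs in 4 of the 317 other array miRNAs whose sequence the table holds, of which miR-1187, miR-3082-5p and miR-574-5p were tested. Probes for such similar sequences may read each other's miRNAs, and which miRNA gave how much of a signal cannot be told apart here.

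Heart muscle miRNAs were detected on every array: miR-1a averaged a log2 signal of 15.98 over the 29 arrays, miR-133a 13.80 and miR-499 11.20. Of the markers of other tissues, brain miR-124 and miR-9 and epithelial miR-200b, miR-200c and miR-141 were detected on 0 arrays and liver miR-122 on 26. In a section of tissue, fewer cells of a type and less RNA per cell cannot be told apart. Array brightness means the share of an array's spots that lay well above background. It was lowest at 18.4% and highest at 27.5%, and the unscaled signal level spanned 2.36-fold over the arrays. Saturation affected 0 spots. Outliers within a probe took 2.85% to 9.32% of spots, most in vehicle replicate 6 of day 3.

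Detection of the members fell into extremes. A probe counted as detected when at least 0.5 of its spots were well above background. On all 29 arrays 27 members were detected, and 17 were detected on 0 arrays. Of the 20 members not tested, only miR-466o-3p (13 arrays), miR-466f-5p and miR-669j (2 each) were detected at all. By name, 18 of 23 miR-669, 14 of 23 miR-466, 8 of 12 miR-467 and 2 of 4 miR-297 members were tested.

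**Figure D1:**
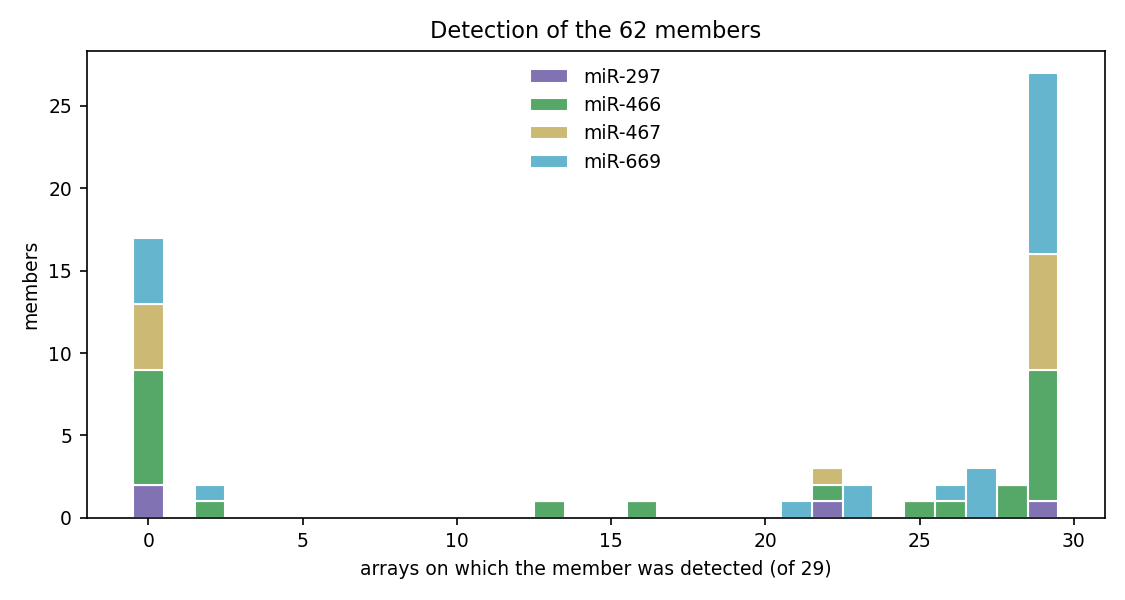
Number of arrays, of 29, on which each of the 62 members was detected, stacked by name family. The 2 tall bars hold 17 members seen on 0 arrays and 27 seen on all 29.

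The arms of a hairpin name were unequally detected. For 18 names the array had both arms. The starred or 3p arm was detected on more arrays than its partner for 15 of the names, on the same number for 3, and on fewer for 0. It was detected on all 29 arrays for 14 names, against 2 for the partner arm. For miR-467a, miR-467b, miR-467d, miR-467e and miR-669h the starred or 3p arm was detected on 29 arrays and the partner on 0. The arms of miR-466i and miR-466m were each detected on all 29, and those of miR-466n on 0. Probes differ in how brightly they read their target, so these counts do not rank the amounts of the arms.

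The average over the 42 tested members gave a level for each array, on the log2 scale of the scaled signal. In vehicle mice on day 1 it was 7.20, 7.16, 7.10 and 6.58. In Printex 90 mice on day 1 it ran from 5.37 to 7.23 with a median of 6.71, the lowest in replicate 4. Vehicle mice on day 3 ran from 5.75 to 7.16, with a median of 6.60, and Printex 90 mice on day 3 stood at 6.99, 6.09, 6.78 and 6.47. On day 28 vehicle mice stood at 6.91, 7.15, 6.16 and 6.37, and Printex 90 mice at 7.16, 6.76, 6.95, 7.38 and 6.92. Exposed and vehicle mice overlapped on each day, and the group means ran from 6.48 ± 0.56 (SD, n = 6, vehicle on day 3) to 7.03 ± 0.24 (SD, n = 5, Printex 90 on day 28), against a pooled SD of 0.51.

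The arrays with the lowest member signals were also dim. Brightness was 22.4% on Printex 90 replicate 4 of day 1, 18.4% on vehicle replicate 4 of day 3, 20.2% on vehicle replicate 6 of day 3 and 22.1% on Printex 90 replicate 2 of day 3, the 4 arrays with the lowest member averages. Between 28 and 35 of the 62 members were detected on these 4 arrays. Printex 90 replicates 5 and 6 of day 1, at a brightness of 19.2% and 20.7%, had averages of 6.31 and 6.25 and 33 and 35 members detected. The remaining arrays had 37 to 45 detected. Among these, vehicle replicate 4 of day 28 and of day 1 averaged 6.37 and 6.58 at a brightness of 25.2% and 25.3%.

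Single members followed the same course (values are mean ± SD, with n as above). For miR-467b*, of the hairpin whose other arm was detected on 0 arrays, vehicle mice averaged 8.78 ± 0.30, 8.27 ± 0.45 and 8.46 ± 0.42 in order of time. Exposed mice averaged 8.44 ± 0.66, 8.38 ± 0.37 and 8.89 ± 0.26. The vehicle and exposed ranges overlapped on each day.

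The hairpin named miR-467f lies in Fxr2 rather than Sfmbt2. Signal under this name averaged 8.34 ± 0.37, 7.97 ± 0.41 and 8.11 ± 0.47 in vehicle mice. In exposed mice it averaged 7.94 ± 0.69, 7.96 ± 0.29 and 8.49 ± 0.18. For miR-467a*, with hairpins in Sfmbt2, vehicle mice averaged 8.26 ± 0.35, 7.87 ± 0.45 and 8.03 ± 0.43. Exposed mice averaged 7.87 ± 0.68, 7.94 ± 0.27 and 8.39 ± 0.20. In both, the exposed mean was the lower on day 1 and the higher on day 28, by less than the larger SD of the pair.

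Among miR-466 members, miR-466h-3p averaged 8.30 ± 0.42 (vehicle) and 7.96 ± 0.67 (exposed) on day 1, while both means were 8.04 on day 3. Its means on day 28 were 8.16 ± 0.47 and 8.51 ± 0.18. miR-466f-3p averaged 8.17 ± 0.44, 7.84 ± 0.43 and 7.99 ± 0.49 in vehicle mice and 7.80 ± 0.70, 7.87 ± 0.30 and 8.35 ± 0.21 in exposed mice. In these, too, the ranges overlapped on each day. Of the miR-669 members, miR-669p* averaged 7.83 ± 0.45, 7.44 ± 0.50 and 7.59 ± 0.52 against 7.41 ± 0.75, 7.46 ± 0.33 and 7.97 ± 0.18. miR-297a*, which has hairpins inside and outside Sfmbt2, averaged 7.01 ± 0.23, 6.37 ± 0.63 and 6.55 ± 0.50 against 6.52 ± 0.79, 6.50 ± 0.46 and 6.93 ± 0.32.

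**Figure D2:**
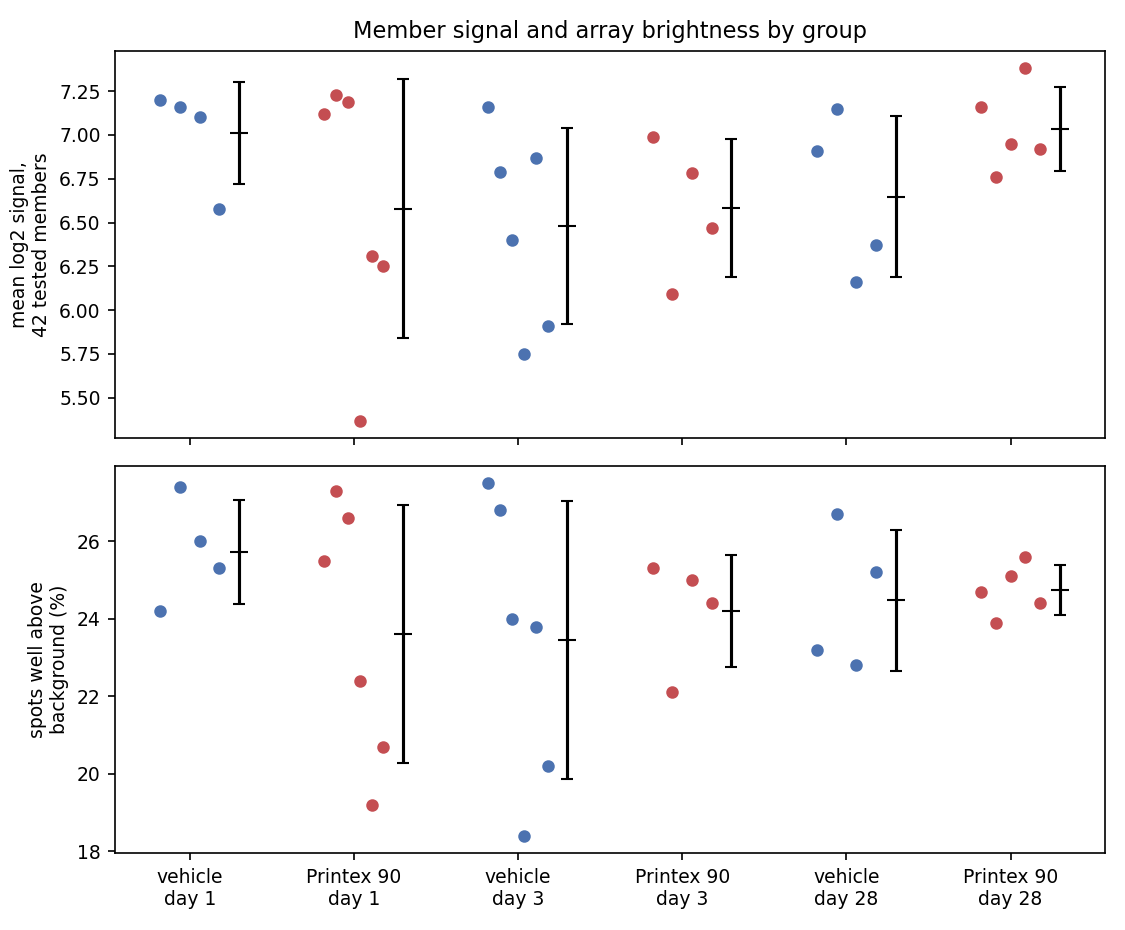
Upper panel, mean log2 signal over the 42 tested members on each array. Lower panel, share of spots well above background on the same array; points are mice, in replicate order, and bars give the group mean ± SD. Groups overlap in both panels, and the widest spreads are those of Printex 90 on day 1 (SD 0.74) and vehicle on day 3 (SD 0.56).

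On day 1 all 42 tested members had lower means in exposed than in vehicle mice, and 199 of all 306 tested miRNAs did. Without the filter on detection 43 of 45 members were lower and 2 higher. Members varied together from array to array, so such counts are not 42 separate results. None of the differences of the 42 passed the threshold. The differences ran from -0.53 to -0.33 on the log2 scale, with a median of -0.43, beside a median of -0.07 over all 306 tested miRNAs. In limma 0 of 42 members were called at an adjusted p under 0.05, and 0% of all tested miRNAs were called. At an unadjusted p under 0.05 there were 0 members and 2 miRNAs in all, and the members' lowest adjusted p was 0.749. Members inside and outside Sfmbt2 had medians of -0.44 and -0.41.

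miR-669b, which had the smallest p, stood at 5.47, 5.70, 5.74 and 5.25 in vehicle mice and ran from 4.04, the lowest value the scale allows, to 5.80 in exposed mice with a median of 5.09. Its difference was -0.51 ± 0.34 (SE), with an adjusted p of 0.749. For miR-467d* vehicle mice stood at 8.56, 8.41, 8.25 and 7.80, and exposed mice ran from 6.59 to 8.37 with a median of 7.98. The difference was -0.44 ± 0.30 (SE). In both miRNAs replicates 4, 5 and 6 of the exposed group were low. Replicates 1 to 3 lay among the vehicle mice for miR-467d*, while for miR-669b replicates 2 and 3 lay above every vehicle mouse. miR-669h-3p ran from 6.21 to 8.07 in exposed mice, median 7.68, against 8.30, 8.08, 7.89 and 7.43, a difference of -0.45 ± 0.31 (SE).

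That pattern was general. For 37 of the 42 members, 3 of the 6 exposed mice lay below the vehicle mean and 3 above it. No member (0 of 42) separated the groups, and of all 306 tested miRNAs 0% did. The size depended on Printex 90 replicate 4: without it the median difference of the members was -0.18. With array brightness as a covariate it was -0.14, and 42 of 42 were still lower.

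On day 3 the members lay close to vehicle. Means were higher in exposed mice for 38 members and lower for 4, and for 184 and 122 of all 306 tested miRNAs. The members had a median difference of 0.12 and a range of -0.03 to 0.21, beside a median of 0.03 over all tested miRNAs. In limma 0 members and 0% of all tested miRNAs were called, with 0 members and 1 miRNA at an unadjusted p under 0.05 and a lowest adjusted p of 0.998. miR-466j, the member furthest up, ran from 4.29 to 5.93 in vehicle mice, median 5.12, and stood at 5.71, 4.59, 5.56 and 5.19 in exposed mice. Its difference was 0.21 ± 0.37 (SE). miR-466i-5p, the furthest down, ran from 7.38 to 8.37 in vehicle mice, median 7.92, and stood at 8.19, 7.72, 7.84 and 7.47 in exposed mice, a difference of -0.03 ± 0.28 (SE).

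The other members with the smallest p in each direction were small too. miR-466h-5p and miR-466d-3p were each at 0.19, with SE of 0.35 and 0.38, and miR-466i-3p and miR-466h-3p were each at -0.01, with SE of 0.29 and 0.28. No member (0 of 42) separated the groups, nor did any other miRNA (0%). The direction turned with single mice: the median was -0.04 without vehicle replicate 4 and -0.03 without Printex 90 replicate 1, and 0.25 without vehicle replicate 1 and 0.27 without Printex 90 replicate 2. It was 0.03 without Printex 90 replicate 4.

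On day 28 all 42 tested members had higher means in exposed mice, beside 169 of all 306 tested miRNAs, and again none passed the threshold. Of these members, miR-466c-5p entered the tests only through detection on 4 arrays of this exposed group. miR-669f-5p entered only through this group and the vehicle mice of day 1, the higher group there. Their directions are therefore not independent of the filter on detection. The 27 members detected on all arrays were all higher. Differences over the 42 ran from 0.25 to 0.51 with a median of 0.38, beside 0.01 over all tested miRNAs. In limma 0 members and 0% of all tested miRNAs were called, with 0 members and 1 miRNA at an unadjusted p under 0.05 and an adjusted p of 0.921 for the members. The medians inside and outside Sfmbt2 were each 0.38.

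miR-467b* stood at 8.72, 8.92, 8.16 and 8.05 in vehicle mice and at 9.13, 8.69, 8.89, 9.18 and 8.58 in exposed mice, a difference of 0.43 ± 0.29 (SE). For miR-297a-5* the vehicle values were 5.08, 5.43, 4.14 and 4.54 and the exposed values 5.33, 4.82, 5.10, 5.92 and 4.95, a difference of 0.43 ± 0.32 (SE). miR-669e* stood at 7.96, 8.12, 7.28 and 7.28 against 8.23, 7.83, 8.01, 8.28 and 7.97, a difference of 0.40 ± 0.31 (SE). In each, vehicle replicates 3 and 4 were low and replicates 1 and 2 lay among the exposed mice.

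All 5 exposed mice lay above the vehicle mean for 30 of the 42 members and 4 of 5 for the other 12. The groups still overlapped in every tested member (0 of 42 separated), while 0.327% of all tested miRNAs separated. Without vehicle replicate 3 the median difference was 0.23. Brightness averaged 24.5% ± 1.81 (SD, n = 4) in vehicle and 24.7% ± 0.631 (SD, n = 5) in exposed mice, and with it as a covariate the median was 0.36.

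**Figure D3:**
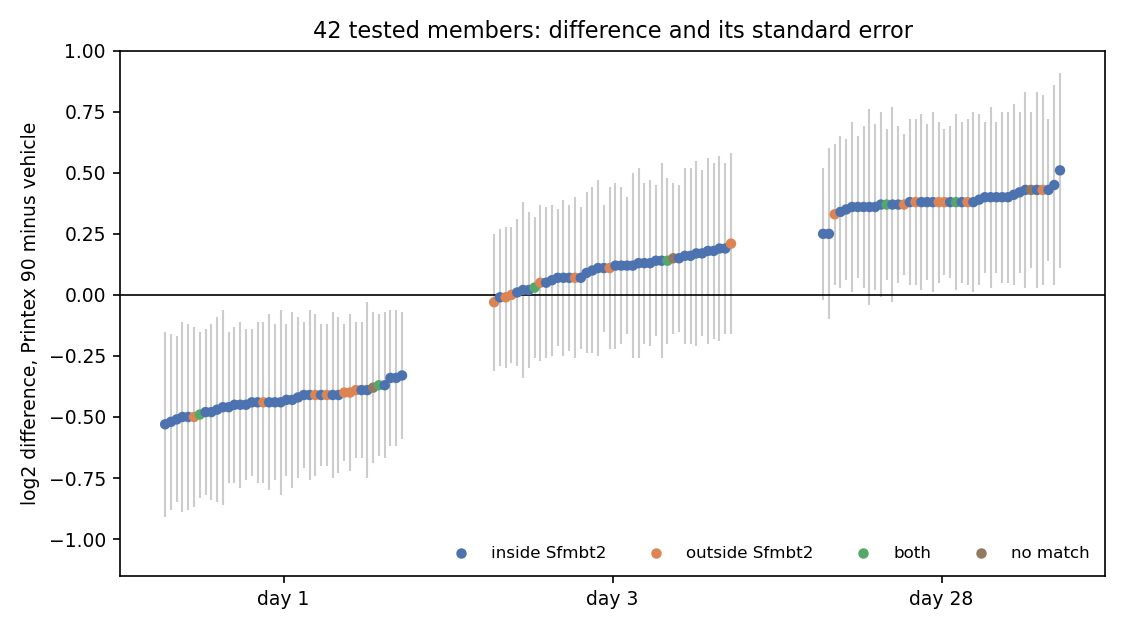
Log2 difference between Printex 90 and vehicle for each of the 42 tested members on each day, sorted by size, with the standard error and coloured by where the RefSeq table puts the hairpins. The values run from -0.53 to -0.33 on day 1, from -0.03 to 0.21 on day 3 and from 0.25 to 0.51 on day 28, and 0 of them passed the threshold on any day.

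The members' 95% intervals were wide. The widest reach was from -1.32 to 0.35 on day 1, from -0.72 to 0.98 on day 3 and from -0.48 to 1.33 on day 28, and each day's intervals held differences of either sign. The residual SD of the members had a median of 0.52, from 0.42 to 0.64, against 0.23 over the other tested miRNAs.

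The change from lower values on day 1 to higher values on day 28 was itself tested as a difference between exposure effects. It had a median of 0.81 over the members, from 0.57 to 0.95, beside 0.03 over all tested miRNAs. In limma 0 members and 0% of all were called, with a lowest adjusted p of 0.480 for the members, and 0 members and 3 miRNAs reached an unadjusted p under 0.05. miR-467d* came closest, at 0.84 ± 0.43 (SE) with an adjusted p of 0.480. Day 3 minus day 1 had a median of 0.54 and day 28 minus day 3 a median of 0.29, with 0 members called (0% of all in each). Unadjusted p was under 0.05 for 0 members in each, and for 2 and 1 miRNAs in all. Leaving out Printex 90 replicate 4 of day 1 brought the day 3 minus day 1 median to 0.31, and the day 28 minus day 3 median lay between 0.09, when vehicle replicate 3 of day 28 was dropped, and 0.46, when replicate 2 was. With brightness as a covariate the day 28 minus day 1 median was 0.50 and the day 3 minus day 1 median 0.14. Without the 4 dimmest arrays the latter was 0.05 and day 28 minus day 3 was 0.61. In the authors' deposited table, day 28 minus day 1 had a median of 0.34.

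Time within each treatment was compared through the same groups, which share samples with the comparisons above. In vehicle mice the members' median was -0.54 from day 1 to day 3 and -0.36 from day 1 to day 28. Lower were 42 of 42 members in each, with 0 called, and 186 and 178 of all 306 tested miRNAs. Among all tested miRNAs 0% and 1.96% were called. Unadjusted p was under 0.05 for 2 members from day 1 to day 3, miR-297a-5* (-0.68 ± 0.31, SE) and miR-669m-3p (-0.78 ± 0.36, SE), each at an adjusted p of 0.433, and for 0 from day 1 to day 28. Of all 306 tested miRNAs 19 and 16 reached it. With brightness as a covariate these medians were -0.21 and -0.18. The first was -0.21 without the 4 dimmest arrays, and the second -0.19 without vehicle replicate 3 of day 28. From day 3 to day 28 the median was 0.16, with 0 members and 0.327% of all called and 0 members and 21 miRNAs in all at an unadjusted p under 0.05. This median turned to -0.16 without the 4 dimmest arrays. Over single mice left out it ran from 0.0039, without vehicle replicate 2 of day 28, to 0.34, without replicate 3.

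In Printex 90 mice the median was 0.03 from day 1 to day 3 and 0.47 from day 1 to day 28. In the latter, 42 of 42 members and 225 of all 306 tested miRNAs were higher. There 0 members and 0.654% of all were called. From day 1 to day 28, 5 members, none of them called, were among the 20 miRNAs with an unadjusted p under 0.05: miR-466g (0.63 ± 0.28, SE), miR-466h-3p, miR-466i-3p, miR-466i-5p and miR-467f (0.55 to 0.57), each at an adjusted p of 0.607. From day 1 to day 3, 0 members and 0% of all were called, and from day 3 to day 28, where the median was 0.46, 0 members and 0.327% of all. Each of these had 0 members at an unadjusted p under 0.05, with 0 and 11 miRNAs in all. The day 3 minus day 1 median ran from -0.21, without Printex 90 replicate 4 of day 1, to 0.16, without replicate 2 of day 3, and was -0.05 with brightness as a covariate. Without the first of these mice the day 28 minus day 1 median was 0.21, and without the other the day 28 minus day 3 median was 0.27. The members named here for an unadjusted p were chosen after their values were seen.

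Array brightness was then set against the members within groups. Brightness was recomputed without the members' own 2480 spots of 45440, and its slope was fitted in limma beside the 6 group means, as log2 change per percentage point. All 42 tested members rose with brightness at an adjusted p under 0.05, and 36.6% of all tested miRNAs did. Of the 264 others 70 rose (26.5%), while 2.61% of all tested miRNAs, with 0 members, fell. The brightness holds the other miRNAs' own spots, which were not left out for them. The slope of the members had a median of 0.16 and ran from 0.11 to 0.22, with adjusted p from 2.27e-05 to 0.0135.

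In the main processing the steepest slopes belonged to 5p arms and names without an arm. miR-669o-5p had 0.22 ± 0.04 (SE, adjusted p = 6e-05), miR-669f-5p 0.21 ± 0.03 (adjusted p = 2.27e-05) and miR-466j 0.21 ± 0.03 (adjusted p = 3.33e-05). miR-669e and miR-669l were at 0.21, and miR-669b, miR-466m-5p, miR-466b-3p, miR-466d-3p and miR-669i at 0.20. miR-466h-5p and miR-669k* stood at 0.19, miR-297a* at 0.18, miR-467c at 0.17 and miR-466c-5p at 0.14. The flattest of the 42 was miR-466h-3p, at 0.11 ± 0.03 (adjusted p = 0.0135). This ranking changed under another background correction (normexp, described below). There miR-669o-5p stood at 0.01, miR-669f-5p at -0.02 and miR-466j at -0.0022. The steepest were then the starred arms miR-467b* (0.09), miR-467c* (0.08) and miR-467d* (0.08).

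Members with lower signal had the steeper slopes in the main processing. The 21 members with the lowest mean signal (4.60 and up) had a median slope of 0.19. The 21 with the highest (7.01 to 8.52) had 0.14. Under normexp the order turned, and members with lower signal had the flatter slopes. There miR-466c-5p, the member with the lowest mean signal, had -0.04 and miR-467b*, with the highest, 0.09. The medians by arm and place below are those of the main processing. The 25 tested starred or 3p arms had a median of 0.15, the 6 tested 5p arms 0.20 and the 11 names without an arm 0.17. These are descriptions, since signal and arm differ together. Members inside Sfmbt2 rose in 32 of 32 cases, with a median slope of 0.17, and those outside in 7 of 7, with a median of 0.15.

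**Figure D4:**
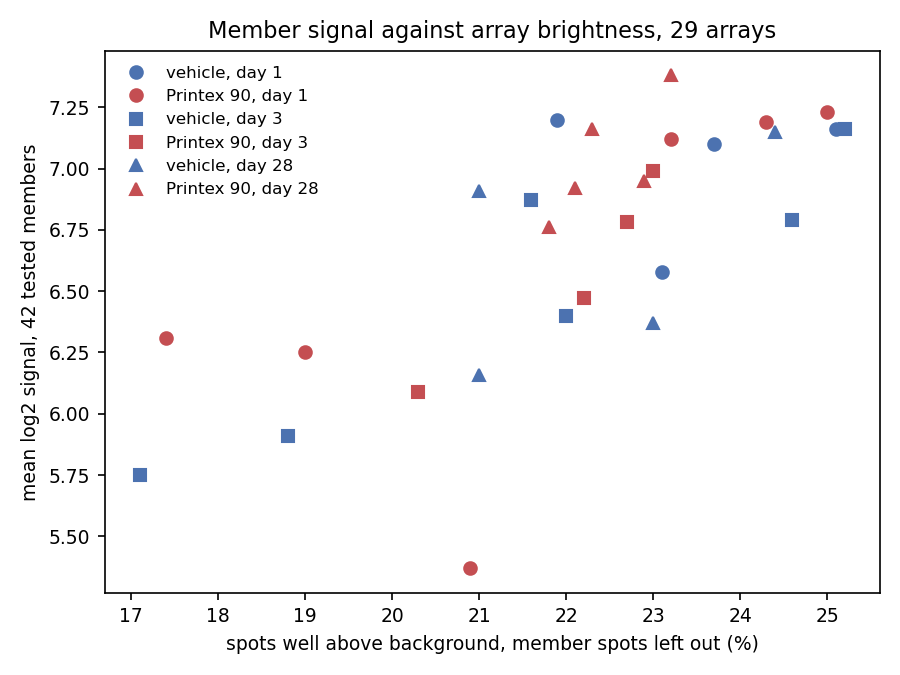
Mean log2 signal over the 42 tested members against array brightness computed without the members' spots, for 29 arrays; colour gives the treatment and shape the day. The lowest averages lie to the left, and Printex 90 replicate 4 of day 1, at 5.37, lies below the other arrays of like brightness. Vehicle replicate 4 of day 28, at 6.37, and of day 1, at 6.58, lie further right.

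Heart muscle miRNAs did not pass the threshold in this fit. miR-1a had a slope of -0.02 (adjusted p = 0.270), miR-133a 0.01 (0.843) and miR-499 0.02 (0.513). Their mean log2 signals, 11.20 to 15.98, lay above those of all tested members, 4.60 to 8.52. How many miRNAs rose depended on the scaling, and without scaling 298 of 306 did. Of 14 tested markers of muscle, red cells, leukocytes, endothelium and liver 2 were called, miR-150 of lymphocytes at 0.07 (adjusted p = 0.0114) and miR-126-5p of endothelium at 0.16 (0.0284). The other arm of that hairpin, miR-126-3p, was at -0.01 (0.563).

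The 3 repeat miRNAs from outside the 4 names moved with the members. All 3 rose with brightness: miR-1187 at 0.16 ± 0.04 (SE, adjusted p = 0.000871), miR-3082-5p at 0.14 ± 0.03 (0.00175) and miR-574-5p at 0.14 ± 0.03 (0.00148). Their exposure differences had medians of -0.41, 0.01 and 0.34 on days 1, 3 and 28, with 0 called on each day, beside -0.43, 0.12 and 0.38 for the members. miR-574-5p stood at 8.20, 8.07, 7.88 and 7.28 in vehicle mice on day 1 and ran from 6.33 to 8.14 in exposed mice, low again in replicate 4. A rise with brightness was not particular to the repeat miRNAs. The other arm of that hairpin, miR-574-3p, is not among them and also rose, at 0.12 (adjusted p = 0.00454).

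Another imprinted miRNA cluster, Dlk1-Dio3, was taken from a list of names, of which 8 of 97 on the array were tested. The list may leave out miRNAs of that cluster. The slope was called for miR-485* (0.20, adjusted p = 0.000124) and miR-376c (0.36, adjusted p = 0.0137) and for 0 of the other 6, and the median was 0.05. Exposure differences of the 8 had medians of -0.15, 0.09 and 0.09 on days 1, 3 and 28, with 0 called.

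**Figure D5:**
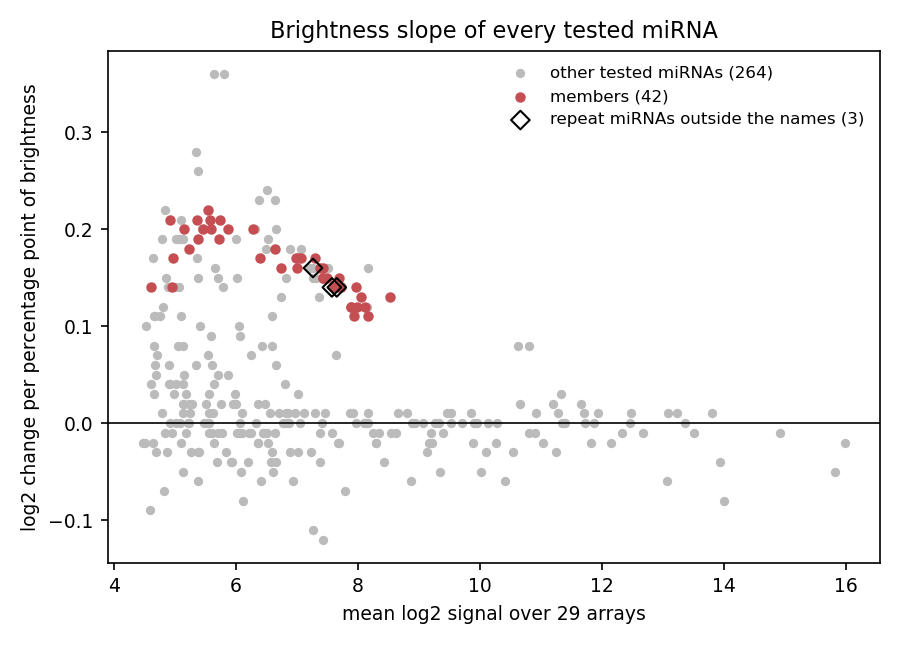
Slope on array brightness against mean log2 signal for the 306 tested miRNAs, with the 42 members in red and the 3 repeat miRNAs outside the names as open diamonds. The members lie between 0.11 and 0.22 at mean signals of 4.60 to 8.52, among other miRNAs with slopes as high.

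The members varied together from array to array. Correlations of residuals from the group means, over 29 arrays that share brightness and scaling, are given as a description. Pairs of members had a median of 0.94 and a lowest value of 0.61, pairs of other miRNAs a median of 0.06, and pairs of a member inside with a member outside Sfmbt2 a median of 0.93. The repeat miRNAs outside the names had a median of 0.93 with the members, and the listed Dlk1-Dio3 miRNAs 0.46. The miRNAs outside the names whose residuals were most like the members', chosen by the median correlation, were miR-485* (0.96), miR-1943* (0.96) and miR-468 (0.96). In all, 42 miRNAs outside the names reached at least 0.84, the lowest such median of any member.

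The sample labels name no slides, so slides were inferred from the barcode under which each scan was deposited. By these barcodes arrays lay on 4 slides, and most slides held both treatments of a day. On day 1 the median difference of the members was -0.82 within slide 1, -0.30 within slide 2, -0.10 within slide 3 and 0.05 within slide 4. Day 3 gave 1.04, 0.09 and -0.44 within slides 1, 2 and 3. Day 28 gave 0.54, 0.25 and 0.20 within slides 2, 3 and 4. Each rests on 1 or 2 mice a treatment. The sign was the same within each slide compared on day 28 only, and with slide as a fixed block the medians were -0.37, 0.07 and 0.43.

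Another scaling moved the median of all miRNAs. With arrays scaled on all probes the median of all tested miRNAs was 0.11 on day 1 and -0.16 on day 28, in place of -0.07 and 0.01. The members' median minus that of all was -0.37 and 0.37 on these days under either scaling, -0.25 and 0.24 under quantile normalization, -0.20 and 0.21 under normexp background correction and -0.21 and 0.18 in the authors' deposited table. The members' own median on day 1 was -0.27 scaled on all probes, -0.24 under quantile normalization, -0.17 under normexp, where 5 members were higher and 37 lower, and -0.18 in the authors' deposited table. On day 28 it was 0.21, 0.20, 0.25 and 0.16 in the same order, with 42 of 42 higher in each. On the brightness slope, 112 miRNAs rose and 8 fell, against 83 and 169 scaled on all probes, 93 and 114 under quantile normalization and 298 and 0 without scaling. The members rose in 36, 42 and 42 cases under these, and 0 fell. Under normexp, which here added an offset of 50 to every signal, 23 members rose and 2 fell, miR-466c-5p (-0.04, adjusted p = 0.0398) and miR-297a-5* (-0.04, adjusted p = 0.0485), among 43 risen and 135 fallen miRNAs.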

How the data were processed

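The deposited scanner files, 1 per mouse, hold spot intensity in 1 colour on a linear scale, already background-subtracted by the authors' scanner software, Feature Extraction 10.7.3.1 per the file headers. The authors' deposited series table holds log2 values whose scaling is not given in the sources used here, and served as an alternative. Group contrasts in that table used all 30 samples, with 5 Printex 90 mice on day 3, and its brightness slope the 29 arrays.

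Spots of a probe were averaged without outlying and control spots. Scaling set each array's 75th percentile, taken over 416 probes seen on every array, to a common level. A floor of 16.5, the smallest detected signal (log2 of 4.04), replaced lower values and held 1.72% of member values. Probes entered if detected on at least 4 arrays of any group, and log2 values were averaged over a miRNA's probes. That left 306 miRNAs and 620 probes, 106 of them for members. Precision is limited by the number of arrays.

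A limma fit (3.58.1, R 4.3.3) gave each of the 6 groups a mean, with two-sided contrasts and Benjamini-Hochberg adjustment over the 306 miRNAs at a threshold of 0.05. The tests were checked on simulated data in which noise was independent between miRNAs. That check does not cover members that vary together. Members and lists were chosen with earlier results of these data known. Named were members past the threshold (up to 15 a direction), 3 a direction per exposure comparison (smallest p), and in each name family the 3 detected on most arrays. Lists beside them held at most 3 named miRNAs. Replicate numbers follow accession order. Alternatives changed scaling, background, probe summary, floor, filter, slide, brightness and the arrays used. No reference genome was used. RefSeq tables gave names, neighbours and sequences, matching 324 array names.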

Additional observations from a re-analysis of the deposited data

Results flagged for a closer look

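Among 180 groups of 4 to 6 mice checked for a mouse standing apart from its group (27 named members, the average over the members, members detected and brightness), 4 held such a value, where chance flags about 5%. Of these, 3 were the same array, vehicle replicate 4 of day 1, which lay below the other 3 vehicle mice of that day in the average over the tested members (6.58), in miR-297a* (6.67) and in miR-669i (5.96). Its brightness was 25.3%. The last was miR-466c-5p in Printex 90 replicate 2 of day 3, at the floor of 4.04, with the other 3 mice at 4.72, 4.68 and 4.61 and a brightness of 22.1% on that array.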

How the results depend on the processing

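No paired analysis was possible because the labels give groups no shared replicate numbers. No member was called for exposure under any alternative run, in limma (0 of 42). On the brightness slope 42 members were called, 25 with normexp (run on the median pixel signal) and 27 of the 27 detected on all arrays. The median slope, 0.16, was 0.09 scaled on all probes, 0.08 with quantile normalization, 0.28 without scaling, 0.06 with normexp, 0.06 in the series table and 0.23 without the 4 dimmest arrays, an alternative chosen after seeing the data. The cause was not tested. Normexp turned the slopes of miR-669b (-0.02), miR-669f-5p (-0.02), miR-467c (-0.03), miR-466c-5p (-0.04), miR-466j (-0.0022), miR-669k* (-0.0042), miR-466b-3p (-0.0011), miR-297a-5* (-0.04) and miR-466l-3p (-0.02), 9 of 42. Day 3 exposure moved furthest, to 1.04 within slide 1 and -0.44 within slide 3, and to -0.23 without the 4 dimmest arrays, where 42 members were lower. Without a filter 651 miRNAs lay at the floor on every array and could not be tested.

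Leaving out each mouse gave a median of -0.58 to -0.18 on day 1, -0.04 to 0.27 on day 3 and 0.23 to 0.55 on day 28.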
